A study of Arabidopsis thaliana with 18 samples.

Results

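This comparison set sob3-6 seedlings of Arabidopsis thaliana against SOB3-D seedlings at ZT9, 1 h after lights off, across the nuclear genes. Every nuclear gene of the ZT9 table was a member, chosen by neither level nor change. These were 24745 genes, of which 20462 had a transcript that averaged 0.5 CPM or more across these 6 libraries and were tested. CPM scales each library to the same number of mapped reads, and a read with equal best matches in more than 1 transcript counted for all of them. The series holds 18 libraries from ZT4, ZT9 and ZT24, and the 6 from ZT9 were 3 of sob3-6 and 3 of SOB3-D. Each ZT9 library came from a pool of whole Col-0 seedlings, 5 days old, grown at 22 °C on medium with 1% sucrose. The day had 8 h of white fluorescent light and 16 h of darkness. Seedlings at ZT4 were also 5 days old, and those at ZT24 were 6 days old. Both genotypes carry the activation tag that raises expression of SOB3. In SOB3-D the overexpressed protein is intact, whereas sob3-6 arose in that background through a missense mutation in the AT-hook, the part of the protein that contacts DNA. Each genotype is a single line and no wild-type library was part of the comparison, so that a gain in one genotype and a loss in the other cannot be told apart.

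SOB3 (AHL29) belongs to the plant-specific AHL family of AT-hook proteins found in the nucleus, whose AT-hooks bind the minor groove of DNA rich in A and T and whose PPC domain joins AHL proteins to each other and to other transcription factors. The family restrains elongation of the hypocotyl, the seedling stem, in the light. Growth of the hypocotyl in short days is driven by PHYTOCHROME-INTERACTING FACTORs (PIFs), basic helix-loop-helix factors that light-activated phytochromes remove and that accumulate as the night goes on. The early night is also when nuclear genes for light harvesting and carbon fixation pass out of their daytime expression under the control of light and the circadian clock.

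The 6 libraries held 7974199 to 8958667 mapped reads in sob3-6 and 7125488 to 8072465 in SOB3-D, and replicates of a genotype had Pearson correlations between 0.975 and 0.990 over transcripts, not over independent samples. One read was worth 0.112 to 0.140 CPM, and a count of 0 allows up to 3 reads, counting error only. Replicate 3 of each genotype stood farthest from the other libraries of its genotype. SOB3 itself (AT1G76500, chr1:28704963-28706691 on TAIR10.1) had 242, 237 and 248 CPM in the sob3-6 libraries, against 157, 144 and 133 CPM in the SOB3-D libraries. The transcript was high in all 6 libraries and the groups did not overlap, with more of it in sob3-6 (log2 fold change 0.75, SE 0.09, adjusted p = 0.00167). Of the 29 AHL genes tested, 4 were higher and 2 lower (1 to 4 higher and 1 to 2 lower without 1 library, fewest higher without SOB3-D replicate 2 or sob3-6 replicate 2 and fewest lower without SOB3-D replicate 1 or 2 or sob3-6 replicate 2), beside 6.09% and 4.11% of all genes. AHL2 fell and kept its call without any 1 library (-1.005, adjusted p = 0.00446). AHL20 (0.80, adjusted p = 0.0465) and AHL10 (0.79, adjusted p = 0.0143) were higher and AHL1 (-0.61, adjusted p = 0.0158) was lower, and these 3 calls were lost without sob3-6 replicate 2 (adjusted p = 0.161, 0.0688 and 0.0744). AHL20 also lost its call without SOB3-D replicate 1, SOB3-D replicate 2, SOB3-D replicate 3 or sob3-6 replicate 1. AHL10 also lost its call without SOB3-D replicate 2. AHL1 also lost its call without SOB3-D replicate 1 or SOB3-D replicate 2.

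Of the 20462 nuclear genes tested, 1246 (6.09%) were higher and 842 (4.11%) were lower in sob3-6, 2088 in all (10.2%), at an adjusted p under 0.05 by limma with Benjamini-Hochberg adjustment. Genes for cell wall remodelling, auxin response, light perception and light harvesting were among those that rose, and genes for carbon fixation, photorespiration and plastid translation among those that fell, as the lists below count. Each list count below is to be read beside the 6.09% higher and 4.11% lower over all genes. The median log2 fold change of the genes that rose was 0.69, with a middle range of 0.51 to 0.98, and that of the genes that fell was -0.57, with a middle range of -0.79 to -0.45. Over all genes tested the median was 0.03, on the log2(CPM + 0.5) scale used throughout, which understates the change of low genes. The excess of higher genes depended on the scaling of the libraries. Higher genes made up 59.7% of the calls on the CPM as deposited. With DESeq2 size factors in the same limma fit they made up 51.8% (1005 higher and 935 lower). DESeq2 on the recovered reads, which also changes the test, gave 49.5% (949 higher and 967 lower). Both genotypes of a replicate number came from the same plates, a pairing that the main fit leaves out. With the replicate number as a block, which keeps the pairing, 1962 genes were higher and 1454 lower. The fits without 1 library are unpaired as well. Without 1 library the count of higher genes lay between 436 (without sob3-6 replicate 2) and 1264, and that of lower genes between 276 (without SOB3-D replicate 1) and 959. Leaving out replicate 3 of both genotypes, an alternative chosen after seeing the data, gave 1584 higher and 1113 lower. In whole seedlings, fewer cells of a type and less RNA per cell cannot be told apart. At an unadjusted p under 0.05, 2999 genes were higher and 2095 lower.

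**Figure D1:**
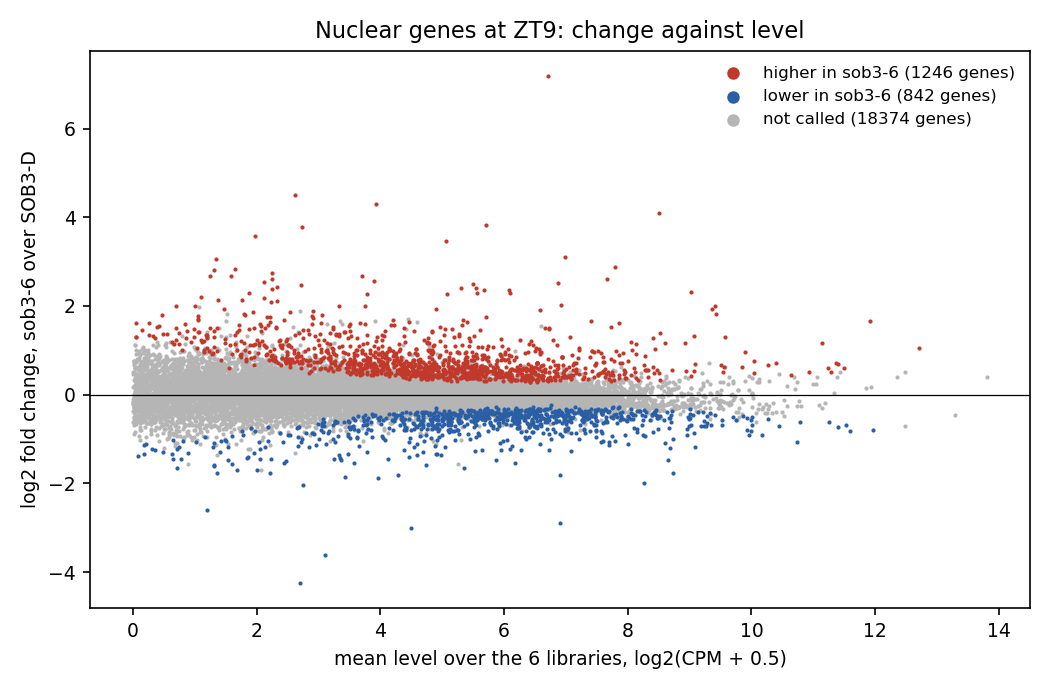
Each point is 1 of the 20462 nuclear genes tested at ZT9, with its mean level over the 6 libraries as log2(CPM + 0.5) on the x axis and its log2 fold change, sob3-6 over SOB3-D, on the y axis. Red points are the 1246 genes higher in sob3-6, blue the 842 lower and grey those not called. The largest change upward, of 7.19, stands apart at the top, and most called genes lie within 1 log2 unit of 0.

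The gene with the largest rise was AT5G44440 (chr5:17910480-17912643 on TAIR10.1), which encodes a berberine-bridge-enzyme-like oxidase with an FAD-binding domain. It had 254, 189 and 183 CPM in the sob3-6 libraries, against 1.61, 0.561 and 0.773 CPM in the SOB3-D libraries. Transcripts were at 1.61 CPM or less in every SOB3-D library and abundant in every sob3-6 library (log2 fold change 7.19, SE 0.24, adjusted p = 3.49e-06). MAH1 (AT1G57750), the midchain alkane hydroxylase that makes the secondary alcohols and ketones of cuticular wax, had 8.6, 15.7 and 9.62 CPM in the sob3-6 libraries, against 0, 0 and 0 CPM in the SOB3-D libraries. With no read in SOB3-D, its level in sob3-6 was at least 28.75-fold higher than the 0.393 CPM that 3 reads per library would give. ATPMEPCRD (AT2G43050), a pectin methylesterase, had 101, 90.9 and 101 CPM in the sob3-6 libraries, against 6.19, 6.17 and 6.95 CPM in the SOB3-D libraries. Its replicates lay close together in both genotypes (log2 fold change 3.82, SE 0.10, adjusted p = 8.81e-07). PME61, a further pectin methylesterase (3.79, adjusted p = 0.000152), MBP1, a myrosinase-binding protein (3.47, adjusted p = 0.00168), the lectin-like AT1G52000 (3.10, adjusted p = 0.00238), PCC1, a small membrane protein controlled by pathogens and the clock (4.31, adjusted p = 0.00709), and AT5G22580, which encodes a stress-responsive barrel domain (2.67, adjusted p = 8.36e-05), were the other large increases outside the cold list below. Of the PCC1 transcript, 23.8% of the 84-base stretches also occur in another gene, so its reads may be shared.

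Among the largest decreases, AT2G32550, an Rcd1-like gene, had 0, 0.251 and 0.25 CPM in the sob3-6 libraries, against 11.2, 13.3 and 11.2 CPM in the SOB3-D libraries. Each SOB3-D library stood far above each sob3-6 library (log2 fold change -4.24, SE 0.24, adjusted p = 7.31e-05). MIOX2 (AT2G19800), a myo-inositol oxygenase that feeds inositol into cell wall precursors, had 21.4, 19.3 and 49 CPM in the sob3-6 libraries, against 238, 157 and 232 CPM in the SOB3-D libraries. No sob3-6 library reached the lowest SOB3-D library (log2 fold change -2.89, SE 0.31, adjusted p = 0.00119). CRK30, a cysteine-rich receptor-like kinase (-3.62, adjusted p = 0.000893), AT3G44970, a cytochrome P450 (-3.01, adjusted p = 0.000141), ERD5, the proline dehydrogenase of mitochondria (-1.99, adjusted p = 0.007), and PP2-A5, a phloem lectin (-1.87, adjusted p = 0.00392), fell as well and kept their calls without any 1 library. FMO1, a monooxygenase of systemic immunity (-2.03, adjusted p = 0.0338), did not keep it without SOB3-D replicate 2 (adjusted p = 0.124). FMO1 also lost its call without SOB3-D replicate 1 or sob3-6 replicate 2.

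Of the PIF genes called, PIF4 changed most. PIF4 (AT2G43010, chr2:17886101-17889087), a main driver of hypocotyl elongation, had 158, 167 and 143 CPM in the sob3-6 libraries, against 50.7, 60.2 and 53.2 CPM in the SOB3-D libraries. Its level averaged 156 ± 12.3 CPM in sob3-6 libraries and 54.7 ± 4.94 CPM in SOB3-D (SD, n = 3 each), with no overlap (log2 fold change 1.51, SE 0.10, adjusted p = 0.000119). Of the 7 PIF genes tested, 4 were higher and none lower (1 to 2 higher without 1 library, fewest higher without SOB3-D replicate 2 or sob3-6 replicate 2), with a list median of 0.49 beside 0.03 for all genes. The other 3 were PIF5 (0.78, adjusted p = 0.0213), PIF7 (0.65, adjusted p = 0.0422) and PIF8 (0.49, adjusted p = 0.0491). PIF5 lost its call without sob3-6 replicate 2 (adjusted p = 0.0946) and PIF7 without SOB3-D replicate 1 (adjusted p = 0.145), whereas PIF8 lost it in every fit without 1 library (adjusted p up to 0.156). DESeq2 called neither PIF7 nor PIF8. PIF1, which holds back germination, gave 0.00, adjusted p = 0.998, and PIF3 gave 0.31, adjusted p = 0.577. PIF5 also lost its call without SOB3-D replicate 2, SOB3-D replicate 3 or sob3-6 replicate 1. PIF7 also lost its call without SOB3-D replicate 2, sob3-6 replicate 2 or sob3-6 replicate 3.

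The study names 13 targets of the PIFs over ZT4, ZT9 and ZT24, chosen on libraries that include these, so that the list is no independent evidence of its direction. Its own test at ZT9 did not call BR6OX2, CPD or SAUR24, and it called the rest, HFR1 included. Of the 13, 9 were higher and none lower, with a median of 1.17 beside 0.03 for all genes, and 5 to 8 were called without 1 library, fewest without sob3-6 replicate 2. XTR7 (AT4G14130), a xyloglucan endotransglucosylase that loosens the wall in shade, had 105, 60.2 and 175 CPM in the sob3-6 libraries, against 13.2, 17.1 and 33.4 CPM in the SOB3-D libraries. The sob3-6 libraries spread over a wide range but stayed above every SOB3-D library (log2 fold change 2.37, SE 0.40, adjusted p = 0.00766). For XTR7, 26.6% of the 84-base stretches also occur in another gene. YUC8, an enzyme of auxin synthesis (1.68, adjusted p = 0.0111), IAA19, an auxin-induced repressor (1.62, adjusted p = 0.00831), and PIL1, a helix-loop-helix factor of shade avoidance (1.5, adjusted p = 0.00448), kept their calls without any 1 library. SAUR22 (1.51, adjusted p = 0.00885) and IAA29 (1.37, adjusted p = 0.0285) did not, both without sob3-6 replicate 2 (adjusted p = 0.0542 and 0.108). The SAUR22 levels were low, at 1.79, 2.01 and 1.87 CPM in the sob3-6 libraries, against 0.50, 0.28 and 0.26 CPM in the SOB3-D libraries. HFR1, an inhibitor of PIF binding, had 16.4 ± 1.88 CPM in sob3-6 libraries and 9.78 ± 3.43 CPM in SOB3-D without passing the test (0.78, adjusted p = 0.0851), though with pairing by replicate number it passed (adjusted p = 0.0438), and over all alternatives its adjusted p was 0.0216 to 0.181. Of the 8 growth repressors the study names over ZT4, ZT9 and ZT24, only ELF4, a clock component of the evening complex, was called. The study likewise lists only ELF4 of these as AHL-induced at ZT9, which means lower in sob3-6 than in SOB3-D. Fold changes were negative for 7 of the 8, with a median of -0.22 beside 0.03, and 2 were lower with the replicate block. This list, too, was chosen on libraries that include these. ELF4 was lower (-0.41, adjusted p = 0.0274), and 5 of the 6 fits without 1 library ended its call, with an adjusted p of 0.0934 without SOB3-D replicate 1. IAA29 also lost its call without SOB3-D replicate 1, SOB3-D replicate 3 or sob3-6 replicate 3. ELF4 also lost its call without SOB3-D replicate 2, SOB3-D replicate 3, sob3-6 replicate 1 or sob3-6 replicate 2.

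Non-DNA-binding helix-loop-helix factors, which bind PIFs and related factors and so tune growth, showed 5 of 10 higher and none lower (3 to 4 higher without 1 library), with a median of 0.86. PAR1 (AT2G42870), a repressor of shade avoidance, had 32.5, 34.7 and 31.5 CPM in the sob3-6 libraries, against 11.2, 9.68 and 9.79 CPM in the SOB3-D libraries. The sob3-6 libraries were close to one another and all above those of SOB3-D (log2 fold change 1.64, SE 0.11, adjusted p = 0.000121). IBH1, an antagonist of brassinosteroid growth responses, rose (1.11, adjusted p = 0.00508). HD-ZIP class II factors, which respond to shade, gave none of 9 called in either direction.

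Auxin response genes rose in part. Of 24 Aux/IAA genes, which encode short-lived repressors induced by auxin, 10 were higher and none lower, with a median of 0.35. The count fell to 2 without sob3-6 replicate 2 and was 9 with DESeq2. IAA7 (AT3G23050) had 207, 231 and 258 CPM in the sob3-6 libraries, against 121, 112 and 123.1 CPM in the SOB3-D libraries, and its groups were well apart (log2 fold change 0.96, SE 0.10, adjusted p = 0.000965). IAA6 had the largest change of the list (2.01, adjusted p = 0.0221), at levels of under 4 CPM in every library, and lost its call without sob3-6 replicate 2 (adjusted p = 0.103). IAA9, the most abundant Aux/IAA gene not called, had 275 ± 11 CPM in sob3-6 libraries and 264 ± 2.29 CPM in SOB3-D. Of 56 SAUR genes, small auxin-induced growth promoters, 7 were higher and 1 lower (2 to 7 higher and 0 to 2 lower without 1 library, fewest higher without sob3-6 replicate 2). AT3G53250 (1.79, adjusted p = 0.002) and AT1G29500 (1.13, adjusted p = 0.00787) rose, SAUR23 rose with a loss of its call without sob3-6 replicate 2 (adjusted p = 0.111), and AT4G34810 fell (-1.33, adjusted p = 0.0208), a call lost without SOB3-D replicate 2 (adjusted p = 0.0875). Levels of SAUR23 and AT4G34810 were low, with means of 2.14 and 0.362 CPM in sob3-6 and of 0.509 and 1.72 CPM in SOB3-D. Of 23 auxin transport genes 5 were higher and 1 lower (1 to 5 higher and 0 to 1 lower without 1 library, fewest higher without SOB3-D replicate 1), and 9 were higher with the replicate block. PIN4, an auxin exporter of the plasma membrane, had 141, 138 and 142 CPM in the sob3-6 libraries, against 99.5, 101 and 78.8 CPM in the SOB3-D libraries, a modest change that no library reversed (log2 fold change 0.60, SE 0.11, adjusted p = 0.00904). PIN5, which sits in the endoplasmic reticulum, was lower (-1.45, adjusted p = 0.0168) and NPY1 higher (0.76, adjusted p = 0.0201), and neither call held without SOB3-D replicate 1 (adjusted p = 0.0765 and 0.0875). The PIN5 levels were 0.558, 0.376 and 0.125 CPM in the sob3-6 libraries, only a few reads each, against 1.98, 1.68 and 1.67 CPM in the SOB3-D libraries. IAA6 also lost its call without SOB3-D replicate 1, SOB3-D replicate 2 or SOB3-D replicate 3. SAUR23 also lost its call without SOB3-D replicate 1 or SOB3-D replicate 2. AT4G34810 also lost its call without SOB3-D replicate 1 or sob3-6 replicate 2. PIN5 and NPY1 also lost their calls without SOB3-D replicate 2 or sob3-6 replicate 2.

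GA20OX1 (AT4G25420), a rate-limiting oxidase of gibberellin synthesis, had 2.23, 3.39 and 3.5 CPM in the sob3-6 libraries, against 0.248, 0.421 and 0.129 CPM in the SOB3-D libraries. It was barely detected in SOB3-D (log2 fold change 2.21, SE 0.28, adjusted p = 0.00249), and of 13 genes for gibberellin synthesis and turnover 3 were higher and 1 lower (1 to 3 higher and 0 to 1 lower without 1 library, fewest higher without SOB3-D replicate 1, 2 or 3 or sob3-6 replicate 2). KS and KO, of its early steps, were higher (0.47 and 0.44), and GA3OX1, which makes the active hormone, was lower (-0.74), these 3 named after their values were seen. Each of these calls was lost in a fit without 1 library, with adjusted p up to 0.141 for KS, 0.125 for KO and 0.0799 for GA3OX1. GASA6, a gibberellin-induced peptide gene, rose (1.48, adjusted p = 0.00045), and so did GAI, a DELLA repressor of the pathway (0.47, adjusted p = 0.0127), whose call was lost without sob3-6 replicate 2 (adjusted p = 0.0516). Among 12 genes for brassinosteroid synthesis and turnover 2 were higher and none lower (1 to 2 higher without 1 library). BR6OX1, an oxidase late in that synthesis, had the larger change (1.06, adjusted p = 0.0365) and lost its call without sob3-6 replicate 2 (adjusted p = 0.121). DWF1, an earlier enzyme, had 569.6 ± 34.6 CPM in sob3-6 libraries and 558 ± 31.1 CPM in SOB3-D, and the receptor gene BRI1 had 231 ± 2.75 CPM in sob3-6 libraries and 227 ± 30.7 CPM in SOB3-D. Of 36 cytokinin genes 1 was higher and 1 lower (0 to 1 higher and 0 lower without 1 library), and of 23 ethylene genes 1 was higher and 1 lower (0 to 3 higher and 0 to 1 lower without 1 library), though 6 ethylene genes and 5 cytokinin genes were higher with the replicate block. Over all genes 6.09% were higher and 4.11% lower. The cytokinin shares (2.78% each) lay below these and the ethylene shares (4.35% each) below or near them. BR6OX1 also lost its call without SOB3-D replicate 1, SOB3-D replicate 2, SOB3-D replicate 3 or sob3-6 replicate 3.

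Cell wall enzymes were among the genes that rose. Of 125 pectin-modifying enzymes 16 were higher and none lower (9 without SOB3-D replicate 2, 22 with the replicate block), beside 6.09% higher among all genes. The list's median was 0.09, so that most members moved little. AT3G49220, a pectin methylesterase, had 135, 145 and 166 CPM in the sob3-6 libraries, against 48.4, 55.4 and 52.7 CPM in the SOB3-D libraries. Its groups were well separated (log2 fold change 1.499, SE 0.10, adjusted p = 0.000121), and the related AT3G47380 rose at a lower level (2.09, adjusted p = 0.000965). Of 24 expansins, which loosen the wall at acid pH, 4 were higher and none lower (2 to 4 higher and 0 to 2 lower without 1 library, fewest higher without sob3-6 replicate 2), and 9 were higher with the replicate block. EXPA8 (AT2G40610) had 64.2, 60.2 and 65.7 CPM in the sob3-6 libraries, against 20.7, 18.2 and 20.9 CPM in the SOB3-D libraries, tight in both genotypes (log2 fold change 1.65, SE 0.10, adjusted p = 8.36e-05). EXPA5 rose (1.35, adjusted p = 0.00159), as did EXPA6 (0.69, adjusted p = 0.014), though the call of EXPA6 was lost without SOB3-D replicate 1 (adjusted p = 0.0665). EXPA6 also lost its call without sob3-6 replicate 2.

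Xyloglucan endotransglucosylases, which cut and rejoin the hemicellulose that ties cellulose fibrils, moved in both directions, with 9 of 29 higher and 3 lower (2 to 10 higher and 1 to 4 lower without 1 library, fewest higher without SOB3-D replicate 1 and fewest lower without sob3-6 replicate 2). XTH9 (AT4G03210) had 250.5, 316 and 321 CPM in the sob3-6 libraries, against 126, 166 and 157 CPM in the SOB3-D libraries, every sob3-6 library being above every SOB3-D library (log2 fold change 0.98, SE 0.13, adjusted p = 0.00327). XTH7 (AT4G37800) had 145, 131 and 122 CPM in the sob3-6 libraries, against 331, 266 and 244 CPM in the SOB3-D libraries, in the opposite order and also without overlap (log2 fold change -1.07, SE 0.12, adjusted p = 0.0015). XTH22, which is induced by touch (1.53, adjusted p = 0.0195), and XTH33 (1.15, adjusted p = 0.0334) were higher, with an adjusted p of 0.0635 for XTH22 without sob3-6 replicate 2 and of 0.119 for XTH33 without SOB3-D replicate 1. Of 55 arabinogalactan and extensin proteins 10 were higher and none lower (1 to 9 higher and 0 to 6 lower without 1 library, fewest higher without SOB3-D replicate 1), and 18 were higher with the replicate block. FLA13, a fasciclin-like arabinogalactan protein, changed most (1.32, adjusted p = 0.0159) and lost its call without SOB3-D replicate 1 (adjusted p = 0.0699). Of 56 genes for cellulose and callose synthesis 3 were higher and 3 lower (1 to 4 higher and 0 to 2 lower without 1 library, fewest higher without sob3-6 replicate 2 and fewest lower without SOB3-D replicate 1 or 2 or sob3-6 replicate 2), shares near the 6.09% and 4.11% of all genes. XTH22 also lost its call without SOB3-D replicate 1. XTH33 also lost its call without SOB3-D replicate 2, sob3-6 replicate 2 or sob3-6 replicate 3. FLA13 also lost its call without SOB3-D replicate 2.

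Wax, cutin and suberin genes, which build the barrier over the epidermis, gave 15 of 54 higher and none lower, with a median of 0.24. The count was 7 without SOB3-D replicate 1 and 20 with the replicate block. Besides MAH1, MYB96 (AT5G62470), an activator of wax synthesis in dry conditions, had 20.6, 26.6 and 22.4 CPM in the sob3-6 libraries, against 7.18, 9.4 and 10.7 CPM in the SOB3-D libraries. Its lowest sob3-6 library was well above its highest SOB3-D library (log2 fold change 1.31, SE 0.17, adjusted p = 0.00238). KCS1 (AT1G01120), which elongates fatty acids for wax, had 93.9, 112 and 144 CPM in the sob3-6 libraries, against 44.2, 57.5 and 54.6 CPM in the SOB3-D libraries, again without overlap (log2 fold change 1.14, SE 0.16, adjusted p = 0.00373). KCS3, KCS6, KCS9, KCS10 and KCS16, of the same enzyme family, CER2, the transporter gene ABCG11, and the cutin genes GPAT3, CYP86A2 and CYP77A6 were also among the members that rose, chosen for mention after their values were seen. Summed CPM of 19 stomatal marker genes, which mark another part of the epidermis, ran from 246 to 276 in sob3-6 and from 221 to 238 in SOB3-D, and their part in the wax result was not tested.

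**Figure D2:**
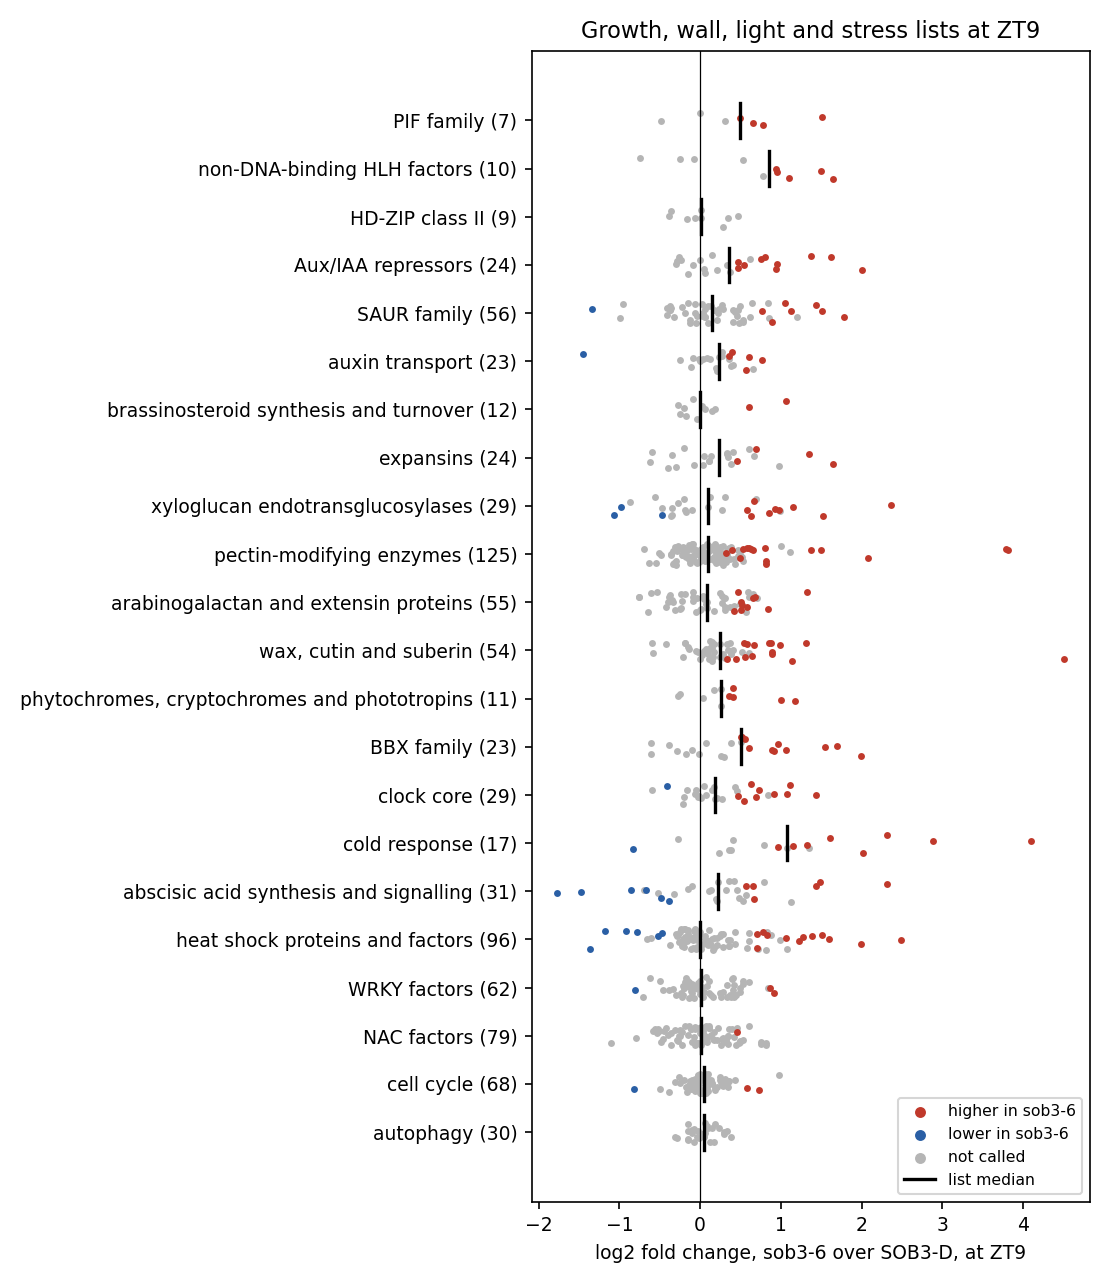
Each point is 1 tested gene of a list, placed by its log2 fold change at ZT9, sob3-6 over SOB3-D, with the number of genes tested after the list's name and the list's median as a black bar. Red points are higher in sob3-6, blue lower and grey not called. The medians of the HLH factors (0.86) and the cold list (1.07) stand right of 0, while those of the WRKY and NAC factors, the cell cycle list and the autophagy list lie within 0.1 of it.

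Of 11 phytochrome, cryptochrome, phototropin and related genes, 5 were higher and none lower, and 2 were called without sob3-6 replicate 2 and 2 without SOB3-D replicate 2. PHOT1 (AT3G45780), the blue-light receptor of phototropism, had 566, 548 and 493 CPM in the sob3-6 libraries, against 252, 255.3 and 207 CPM in the SOB3-D libraries. PHYA (AT1G09570), the far-red receptor that is most stable in darkness, had 379, 339 and 355 CPM in the sob3-6 libraries, against 185, 188 and 162 CPM in the SOB3-D libraries. Every sob3-6 library was above every SOB3-D library for PHOT1 (log2 fold change 1.17, SE 0.11, adjusted p = 0.000608) and for PHYA (log2 fold change 1.00, SE 0.09, adjusted p = 0.000608). CRY1, a blue-light receptor, changed less (0.40, adjusted p = 0.0179), a call lost without sob3-6 replicate 2 (adjusted p = 0.0837). Among photoreceptors the study reports a difference in its RNA-seq for UVR8 alone, whereas PHOT1, PHYA and CRY1 were called here. PHYB, the main red-light receptor, had 67.1 ± 4.38 CPM in sob3-6 libraries and 65.5 ± 8.93 CPM in SOB3-D, and PHOT2 had 232 ± 9.08 CPM in sob3-6 libraries and 206 ± 13.8 CPM in SOB3-D without passing the test (0.17, adjusted p = 0.257). For PHOT2, 35.7% of the stretches also occur in another gene. PKS2 (AT1G14280), a partner of phytochromes and phototropins, had 57.7, 54.4 and 52.6 CPM in the sob3-6 libraries, against 24.6, 19.6 and 20.7 CPM in the SOB3-D libraries, more in each sob3-6 library (log2 fold change 1.33, SE 0.11, adjusted p = 0.000324). It was 1 of 4 higher among 24 light signalling genes, none of which was lower (1 to 4 higher and 0 to 2 lower without 1 library, fewest higher without SOB3-D replicate 1 or 2 or sob3-6 replicate 2). CRY1 also lost its call without SOB3-D replicate 2.

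B-box (BBX) zinc finger factors, which carry light and clock signals to growth and flowering, gave 11 of 23 higher and none lower, with a median of 0.50. The count was 7 without sob3-6 replicate 2 and 11 with DESeq2 and with the replicate block. BBX17 (AT1G49130) had 66.8, 63 and 53.3 CPM in the sob3-6 libraries, against 18.7, 17.8 and 18.8 CPM in the SOB3-D libraries, a difference several times the spread within either genotype (log2 fold change 1.69, SE 0.11, adjusted p = 0.00011). BBX28, a repressor of HY5 activity (1.55, adjusted p = 0.00617), and BBX6 (COL5), a CONSTANS-like factor (1.06, adjusted p = 0.00342), rose in all fits, while BBX16, at under 4 CPM in every library, lost its call without sob3-6 replicate 2 (adjusted p = 0.0804). BBX16 also lost its call without SOB3-D replicate 2 or sob3-6 replicate 1.

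Of 29 clock genes 9 were higher and 1, ELF4, was lower (2 to 9 higher and 0 to 2 lower without 1 library, fewest higher without sob3-6 replicate 2), with a median of 0.18. Those higher were LNK1, LNK2, LNK4, GI, PRR3, PRR5, PRR7, RVE7 and FKF1. LNK2 (AT3G54500), a coactivator of evening genes, had 17.9, 18.7 and 12.1 CPM in the sob3-6 libraries, against 4.96, 6.74 and 5.15 CPM in the SOB3-D libraries. GI (GIGANTEA), which sets flowering time and the stability of clock proteins, had 130.5, 140.0 and 92 CPM in the sob3-6 libraries, against 60.2, 68.6 and 39.3 CPM in the SOB3-D libraries. Replicate 3 was the lowest of both genotypes for GI, and the groups still did not overlap. The change was 1.44, adjusted p = 0.00342 for LNK2 and 1.12, adjusted p = 0.014 for GI, with an adjusted p of 0.0668 for GI without sob3-6 replicate 2. LNK4 (1.08, adjusted p = 0.0188) and LNK1 (0.92, adjusted p = 0.0366) lost their calls without sob3-6 replicate 2 as well (adjusted p = 0.0942 and 0.134). TOC1 had 262 ± 15.5 CPM in sob3-6 libraries and 254 ± 14.7 CPM in SOB3-D, and ELF3 had 114 ± 2.75 CPM in sob3-6 libraries and 116 ± 3.09 CPM in SOB3-D, so that these central evening genes differed by less than the spread between replicates. Of 6 cycling DOF factors, repressors of flowering that GI and FKF1 remove, 3 were higher, beside 6.09% of all genes, but no fit without 1 library called all 3 (1 to 2 higher without 1 library, fewest higher without SOB3-D replicate 1 or 3 or sob3-6 replicate 1 or 2), and DESeq2 called 1. CDF5 rose (1.17, adjusted p = 0.00719), with 53.8% of its stretches found in another gene, and CDF1 rose (0.99, adjusted p = 0.0387) in 1 only of the 6 fits without 1 library (adjusted p = 0.164 without sob3-6 replicate 2). LNK4 also lost its call without SOB3-D replicate 1 or SOB3-D replicate 2. LNK1 and CDF1 also lost their calls without SOB3-D replicate 1, SOB3-D replicate 2, SOB3-D replicate 3 or sob3-6 replicate 1.

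Genes of the light-harvesting complexes, which bind chlorophyll around the photosystems, showed some of the clearest rises. Of 21 genes 13 were higher and 1 lower, against 6.09% and 4.11% of all genes, and the list's median was 0.60 beside 0.03. The 13 were LHCB2.1, LHCB2.2, LHCB2.3, LHCB1.4, LHCB1.5, LHCB3, LHCB4.1, LHCB4.2, LHCB6, LHCA1, LHCA2, LHCA3 and LHCA4. Without SOB3-D replicate 1 or replicate 2 the count was 7. LHCB2.3 (AT3G27690, chr3:10255906-10257489) had 188, 220.3 and 188 CPM in the sob3-6 libraries, against 32.6, 35.9 and 34.5 CPM in the SOB3-D libraries. LHCB4.2 (AT3G08940, chr3:2717557-2718923), which encodes an antenna protein inside photosystem II, had 1046, 1062 and 1105 CPM in the sob3-6 libraries, against 286, 291 and 332 CPM in the SOB3-D libraries. In both genes the 3 libraries of a genotype lay close together and the genotypes far apart, with log2 fold changes of 2.51, adjusted p = 5.16e-06 for LHCB2.3 and 1.82, adjusted p = 4.86e-05 for LHCB4.2. LHCB2.2 (1.99, adjusted p = 2.82e-05) and LHCB2.1 (1.92, adjusted p = 2.82e-05) changed alike, but 37.05%, 16.7% and 12.6% of the stretches of LHCB2.3, LHCB2.2 and LHCB2.1 also occur in another gene, so reads may be counted on more than 1 of them.

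LHCB1.4 (AT2G34430), named after its values were seen for its high level, had 5214, 5708 and 6705 CPM in the sob3-6 libraries, against 1651, 1771 and 2141 CPM in the SOB3-D libraries. Every sob3-6 library stood far above the highest SOB3-D library (log2 fold change 1.66, SE 0.16, adjusted p = 0.000777). LHCB3, also named after its values were seen, had 3117 ± 242 CPM in sob3-6 libraries and 1389 ± 102 CPM in SOB3-D (1.17, adjusted p = 0.00117). CAB1, the most abundant member, had 14950, 15850 and 18240 CPM in the sob3-6 libraries, against 11800, 11160 and 14210 CPM in the SOB3-D libraries, and did not pass the test (0.40, adjusted p = 0.314). Lhca5, a minor antenna protein of photosystem I, was the member that fell (-0.53, adjusted p = 0.0165), and its call was lost without SOB3-D replicate 1 (adjusted p = 0.0676). Photosystem I subunits gave 3 of 13 higher and none lower (1 to 3 higher without 1 library, fewest higher without SOB3-D replicate 1 or 2 or sob3-6 replicate 2), and 9 higher with the replicate block. PSAD-2 (AT1G03130) had 628, 710.0 and 668 CPM in the sob3-6 libraries, against 289, 281 and 327 CPM in the SOB3-D libraries, with the groups far apart (log2 fold change 1.16, SE 0.10, adjusted p = 0.000339). Of 24 photosystem II subunits 6 were lower and 2 higher (1 to 2 higher and 2 to 6 lower without 1 library, fewest higher without SOB3-D replicate 1 or 2 or sob3-6 replicate 1 or 2 and fewest lower without SOB3-D replicate 1 or 2 or sob3-6 replicate 2), the higher share being near that of all genes. PSB28 (AT4G28660), an assembly factor, had 48.2, 64.1 and 68.5 CPM in the sob3-6 libraries, against 124, 124 and 142 CPM in the SOB3-D libraries, while PSBQ-2, of the oxygen-evolving complex, had 1217, 1354 and 1411 CPM in the sob3-6 libraries, against 765, 738 and 842 CPM in the SOB3-D libraries. PSB28 fell and PSBQ-2 rose beyond the spread of either genotype (-1.12, adjusted p = 0.00181 and 0.76, adjusted p = 0.00392). PSBO1, the abundant manganese-stabilising subunit, had 3904 ± 479.9 CPM in sob3-6 libraries and 3507 ± 470.3 CPM in SOB3-D. Lhca5 also lost its call without SOB3-D replicate 2 or sob3-6 replicate 2.

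Of 31 chlorophyll and tetrapyrrole genes 6 were higher and 6 lower, with a median of -0.22, and the lower count ranged from 1 without SOB3-D replicate 1 to 11 with the replicate block. PORA and PORB encode the light-dependent protochlorophyllide oxidoreductases, which act in the step that needs light. PORB (AT4G27440) had 1126, 1126 and 994 CPM in the sob3-6 libraries, against 461, 443 and 419.5 CPM in the SOB3-D libraries. PORA (AT5G54190), the form that predominates in etiolated seedlings, had 4.91, 3.13 and 2.75 CPM in the sob3-6 libraries, against 0, 0.14 and 0.258 CPM in the SOB3-D libraries. Both rose with no overlap, although PORA stayed under 5 CPM (1.29, adjusted p = 0.0002 for PORB and 2.68, adjusted p = 0.00143 for PORA). GUN4, an activator of magnesium chelatase, was higher (1.105, adjusted p = 0.00101), but 71.15% of its stretches also occur in another gene. CHLI1 (AT4G18480), a subunit of that chelatase, had 242, 273 and 284 CPM in the sob3-6 libraries, against 392.2, 393 and 396 CPM in the SOB3-D libraries, lower in each sob3-6 library (log2 fold change -0.57, SE 0.09, adjusted p = 0.00561), and its paralog CHLI2 was lower in the same fit (-0.58, adjusted p = 0.015) but not without SOB3-D replicate 1 (adjusted p = 0.0707). GUN5, the subunit that binds the porphyrin, had 1031 ± 34.9 CPM in sob3-6 libraries and 958 ± 62 CPM in SOB3-D. CHLI2 also lost its call without SOB3-D replicate 2 or sob3-6 replicate 2.

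The sequence just before the start of these genes was read from the TAIR10.1 genome of RefSeq, 250 bases for each gene, and searched on both strands for the G-box CACGTG of light-regulated promoters, the I-box GATAAG, the evening element AAAATATCT of clock-controlled genes, the TCP site GGNCCC and the core CCGAC of the cold-responsive element, the last added after the values were seen. The G-box reads the same on both strands, and no motif contains another. Capitals mark the matches in either direction. The first pair belongs to the light-harvesting list and the next pair to the oxidoreductases, as examples of large rises. The last pair belongs to the cold list described further on.
LHCB2.3: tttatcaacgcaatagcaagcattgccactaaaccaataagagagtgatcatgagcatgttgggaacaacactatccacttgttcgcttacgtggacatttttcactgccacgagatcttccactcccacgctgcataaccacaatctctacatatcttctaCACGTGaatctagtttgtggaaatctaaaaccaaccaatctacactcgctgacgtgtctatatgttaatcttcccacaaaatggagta
LHCB4.2: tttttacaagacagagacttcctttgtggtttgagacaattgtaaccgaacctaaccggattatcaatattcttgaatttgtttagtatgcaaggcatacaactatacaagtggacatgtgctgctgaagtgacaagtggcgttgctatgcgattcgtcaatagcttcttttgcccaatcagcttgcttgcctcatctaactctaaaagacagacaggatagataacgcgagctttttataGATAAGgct
PORA: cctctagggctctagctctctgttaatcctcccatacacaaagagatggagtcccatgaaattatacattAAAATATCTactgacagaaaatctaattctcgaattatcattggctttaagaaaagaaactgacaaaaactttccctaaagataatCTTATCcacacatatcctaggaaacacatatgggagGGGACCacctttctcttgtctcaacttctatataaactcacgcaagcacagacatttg
PORB: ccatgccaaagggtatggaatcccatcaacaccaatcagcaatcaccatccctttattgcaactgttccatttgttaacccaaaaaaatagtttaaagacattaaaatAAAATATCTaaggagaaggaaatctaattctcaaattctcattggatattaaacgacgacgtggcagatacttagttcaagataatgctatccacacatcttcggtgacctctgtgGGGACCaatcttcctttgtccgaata
COR15A: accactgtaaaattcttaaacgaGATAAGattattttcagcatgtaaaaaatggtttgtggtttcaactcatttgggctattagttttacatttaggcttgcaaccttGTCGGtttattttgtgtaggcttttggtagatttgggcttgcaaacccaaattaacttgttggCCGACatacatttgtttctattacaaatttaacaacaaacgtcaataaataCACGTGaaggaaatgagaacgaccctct
RD29A: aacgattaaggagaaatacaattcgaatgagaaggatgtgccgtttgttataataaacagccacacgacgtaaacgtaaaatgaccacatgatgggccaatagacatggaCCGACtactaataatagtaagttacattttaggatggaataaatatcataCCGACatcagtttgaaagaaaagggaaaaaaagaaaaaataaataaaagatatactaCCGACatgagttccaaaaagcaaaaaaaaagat
They lie at chr3:10255656-10255905, plus strand for LHCB2.3, at chr3:2717307-2717556, plus strand for LHCB4.2, at chr5:21992815-21993064, minus strand for PORA, at chr4:13725296-13725545, plus strand for PORB, at chr2:17712331-17712580, minus strand for COR15A and at chr5:21240467-21240716, plus strand for RD29A. The LHCB2.3 stretch holds 1 G-box that begins 88 bases before the gene start. PORA and PORB each hold 1 evening element, beginning 180 bases and 142 bases before the start. RD29A holds 3 copies of the cold core and COR15A holds 2.

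Across the 20383 genes with such a stretch, a G-box was found in 7.37% of all, in 9.61% of those higher and in 6.56% of those lower in sob3-6. The evening element was found in 2.51% of all, 3.45% of the higher and 2.74% of the lower genes. For the TCP site the shares were 8.15% of all, 7.64% of the higher and 9.42% of the lower genes. The I-box was in 12.3% of all, 13.3% of the higher and 14.5% of the lower genes, and the cold core in 12.9% of all, 14.3% of the higher and 13.35% of the lower. Median A and T content was 68.8% over all, 69.6% in the higher and 68.4% in the lower genes. Among the 13 light-harvesting genes that rose, 4 held a G-box and 4 an I-box, among the 9 clock genes that rose 3 held an evening element, and among the 8 cold genes that rose 2, the pair shown above, held the cold core. Lists that fell held these motifs too. A G-box was in 4 of 8 starch, 2 of 6 photosystem II, 3 of 13 photorespiration, 2 of 11 Calvin cycle and 1 of 14 plastid ribosomal genes that fell. In the same order, an I-box was in 1, 0, 1, 4 and 2 of them. These are matches of letters in a short window, given as a description with no test.

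**Figure D3:**
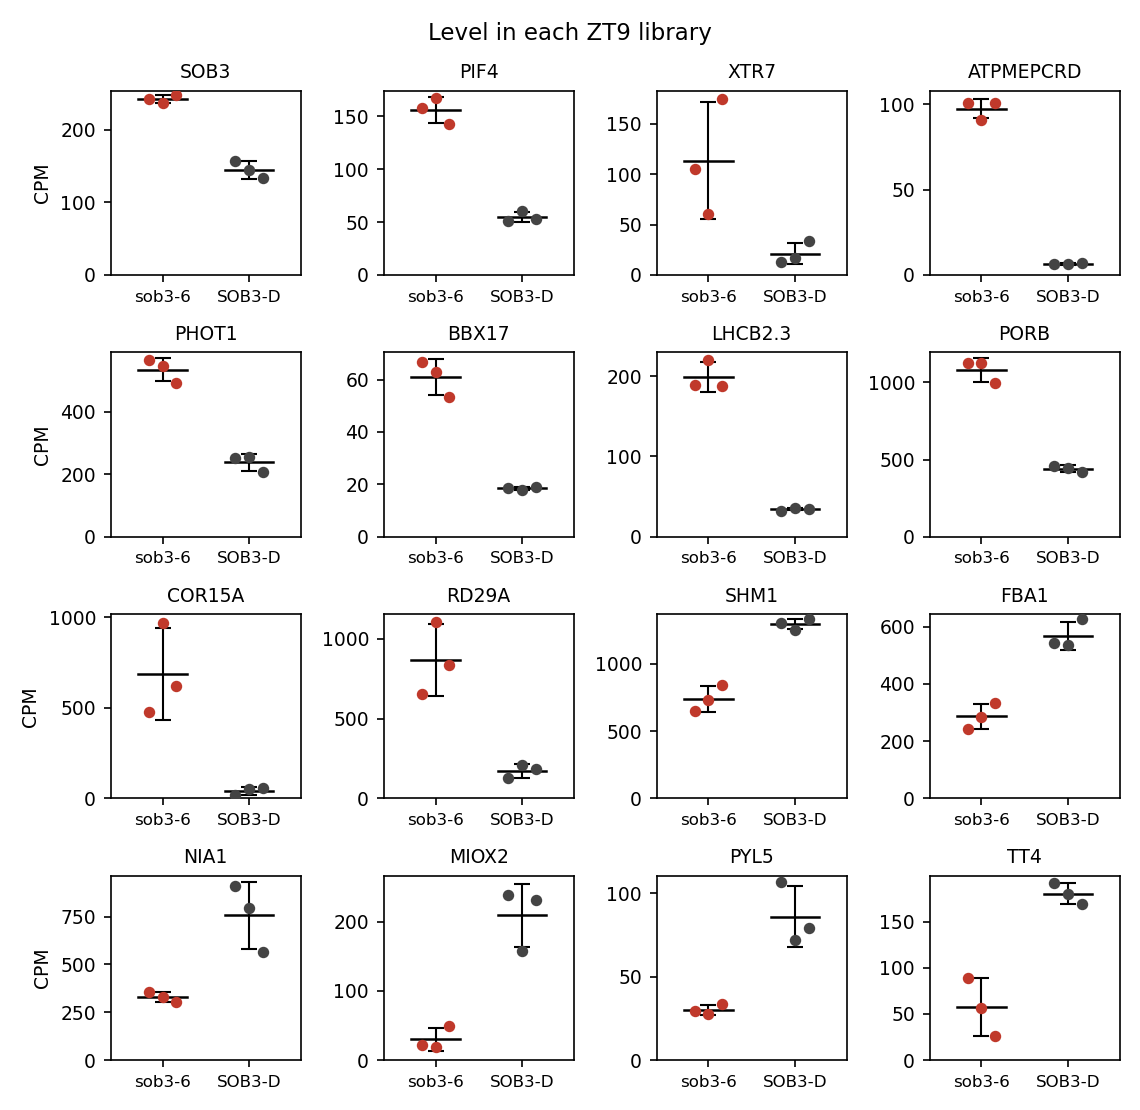
Points are the CPM of 16 genes in each ZT9 library, sob3-6 in red on the left and SOB3-D in grey on the right of each panel, with the mean as a bar and the SD (n = 3) as the error bar, on linear axes that start at 0. In all 16 panels the genotypes do not overlap, and XTR7 and COR15A spread widely within sob3-6.

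Carbon fixation genes were called in 1 direction. Of 21 Calvin cycle genes 11 were lower and none higher, against 4.11% of all genes lower, with a median of -0.53 beside 0.03. The count was 3 without sob3-6 replicate 2, 3 without SOB3-D replicate 1 and 17 with the replicate block. FBA1 (AT2G21330, chr2:9128122-9130619), a plastid fructose-bisphosphate aldolase, had 244, 283 and 332 CPM in the sob3-6 libraries, against 543, 534 and 625 CPM in the SOB3-D libraries. GAPB (AT1G42970), a subunit of the plastid glyceraldehyde-3-phosphate dehydrogenase, had 616, 713 and 832 CPM in the sob3-6 libraries, against 1225, 1188 and 1301 CPM in the SOB3-D libraries. In each gene the highest sob3-6 library stayed below the lowest SOB3-D library (-0.99, adjusted p = 0.00234 for FBA1 and -0.79, adjusted p = 0.0062 for GAPB). The Rubisco small subunit genes RBCS2B (-0.83, adjusted p = 0.0268) and RBCS1B (-0.79, adjusted p = 0.0382) were lower, and each kept its call in 1 of the 6 fits without 1 library (adjusted p = 0.12 for RBCS2B and 0.147 for RBCS1B without sob3-6 replicate 2). RBCS3B had 3702, 4097 and 5300 CPM in the sob3-6 libraries, against 6649, 6049 and 8574 CPM in the SOB3-D libraries. Its groups did not overlap, and it did not pass the test (-0.70, adjusted p = 0.0659) but passed in the paired fit (adjusted p = 0.00932) and in DESeq2 (adjusted p = 0.00189), the range over its alternatives being 0.00189 to 0.22. RBCS2B and RBCS1B also lost their calls without SOB3-D replicate 1, SOB3-D replicate 2, SOB3-D replicate 3 or sob3-6 replicate 1.

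Photorespiration, which recovers the product of the oxygenase reaction of Rubisco across plastid, peroxisome and mitochondrion, gave 13 of 16 genes lower and none higher, with a median of -0.57. Without sob3-6 replicate 2 or SOB3-D replicate 1 the count was 4, and with the replicate block it was 14. SHM1 (AT4G37930), the mitochondrial serine hydroxymethyltransferase, had 647, 732 and 842 CPM in the sob3-6 libraries, against 1303, 1253 and 1330 CPM in the SOB3-D libraries. GLYK (AT1G80380), the glycerate kinase that closes the pathway in the plastid, had 121, 126 and 166 CPM in the sob3-6 libraries, against 250.4, 209 and 267 CPM in the SOB3-D libraries. Every sob3-6 library was below every SOB3-D library for both (-0.81, adjusted p = 0.00421 for SHM1 and -0.82, adjusted p = 0.00758 for GLYK). AOAT2, a peroxisomal aminotransferase (-0.80, adjusted p = 0.00383), and GLDP2, a subunit of glycine decarboxylase (-0.69, adjusted p = 0.00383), fell and kept their calls without any 1 library. The other members that fell ranged from GOX1 (-0.68) to GOX2 (-0.43), both glycolate oxidases, on the log2 scale, and included the hydroxypyruvate reductase HPR1 and the transporter PLGG1, these 4 named after their values were seen.

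Plastid translation and transcription genes fell to a smaller extent. Of 40 nuclear genes for plastid ribosomal proteins 14 were lower and none higher, with a median of -0.40. This count was 1 without SOB3-D replicate 1 or sob3-6 replicate 2 and 36 with the replicate block. PSRP3/1, a plastid-specific ribosomal protein, had the largest change of the list (-0.62, adjusted p = 0.0139) and lost its call without SOB3-D replicate 1 (adjusted p = 0.0639). Of 26 genes for plastid gene expression 10 were lower and 1 higher (1 higher and 3 to 11 lower without 1 library, fewest lower without SOB3-D replicate 1). PDE312 (PTAC10; AT3G48500), a component of the plastid-encoded polymerase complex, had 71.8, 71.7 and 60.2 CPM in the sob3-6 libraries, against 117, 114 and 101 CPM in the SOB3-D libraries. SIGA (AT1G64860), a sigma factor that guides that polymerase, had 73.8, 75.5 and 66.2 CPM in the sob3-6 libraries, against 47.2, 42.8 and 43.3 CPM in the SOB3-D libraries. The complex component was lower and the sigma factor higher in each sob3-6 library (-0.70, adjusted p = 0.00421 for PDE312 and 0.69, adjusted p = 0.00294 for SIGA). Of 184 cytosolic ribosomal protein genes 22 were lower and 1 higher, with a median of -0.24, and the lower count was 0 without SOB3-D replicate 2, 56 with the replicate block and 59 with DESeq2. Among the 2454 nuclear genes whose product the annotation places in the chloroplast, 374 (15.2%) were lower and 120 (4.89%) higher, beside 4.11% and 6.09% of all genes, with a median of -0.11 (45 to 125 higher and 113 to 451 lower without 1 library, fewest higher without sob3-6 replicate 2 and fewest lower without SOB3-D replicate 1), and 590 were lower and 179 higher with the replicate block. PSRP3/1 also lost its call without sob3-6 replicate 2.

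Of 38 genes for starch synthesis and breakdown 8 were lower and 2 higher (0 to 5 higher and 1 to 8 lower without 1 library, fewest higher without sob3-6 replicate 2 and fewest lower without SOB3-D replicate 1 or 2 or sob3-6 replicate 2). PGI1 (AT4G24620), the plastid phosphoglucose isomerase, had 134, 123.1 and 114 CPM in the sob3-6 libraries, against 198, 189 and 169.9 CPM in the SOB3-D libraries, lower in each sob3-6 library (log2 fold change -0.58, SE 0.09, adjusted p = 0.00673). Of 27 genes for fatty acid and lipid synthesis 7 were lower and 2 higher (1 to 3 higher and 4 to 8 lower without 1 library, fewest higher without SOB3-D replicate 1 or 2 and fewest lower without SOB3-D replicate 1 or 2 or sob3-6 replicate 2). FAD8 (AT5G05580), a plastid desaturase that responds to cold, had 37.6, 37.9 and 47.8 CPM in the sob3-6 libraries, against 87.8, 79.2 and 88.2 CPM in the SOB3-D libraries. Its groups were far apart (log2 fold change -1.05, SE 0.11, adjusted p = 0.00114), and 8.69% of its stretches also occur in another gene. Of 18 carotenoid genes 6 were lower and 1, NCED4, higher (1 to 2 higher and 2 to 5 lower without 1 library, fewest lower without sob3-6 replicate 2). Of 14 genes for photosynthetic electron transport 3 were lower and 1 higher (0 to 1 higher and 1 to 5 lower without 1 library).

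**Figure D4:**
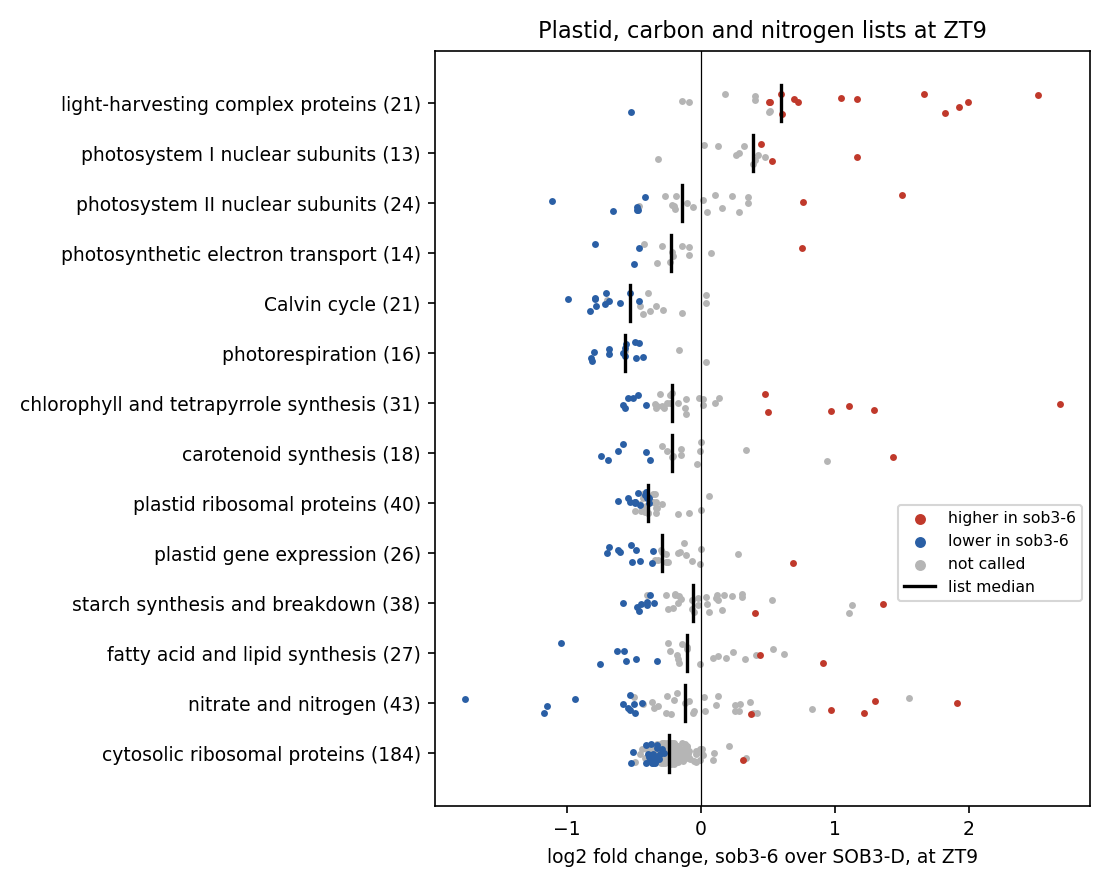
Each point is 1 tested gene of a list, placed by its log2 fold change at ZT9, sob3-6 over SOB3-D, with the number of genes tested after the list's name and the list's median as a black bar. Red points are higher in sob3-6, blue lower and grey not called. The light-harvesting list (median 0.60) lies mostly right of 0, and the Calvin cycle (-0.53), photorespiration (-0.57) and plastid ribosomal lists (-0.40) lie mostly left of it.

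Nitrogen genes moved in both directions, with 11 of 43 lower and 5 higher (4 to 5 higher and 4 to 10 lower without 1 library, fewest lower without SOB3-D replicate 1 or 2). NIA1 (AT1G77760), a nitrate reductase, had 354, 331 and 306 CPM in the sob3-6 libraries, against 910.1, 795 and 566 CPM in the SOB3-D libraries. LBD38 (AT3G49940), a nitrate-induced repressor of nitrate genes, had 43.3, 39.8 and 46 CPM in the sob3-6 libraries, against 89.9, 103 and 94.7 CPM in the SOB3-D libraries. Both fell with no overlap (-1.17, adjusted p = 0.00356 for NIA1 and -1.15, adjusted p = 0.000302 for LBD38). NPF1.2 (AT1G52190), a transporter that moves nitrate between phloem and xylem, had 144, 144 and 167 CPM in the sob3-6 libraries, against 44.7, 41.1 and 34.2 CPM in the SOB3-D libraries, more in each sob3-6 library (log2 fold change 1.91, SE 0.12, adjusted p = 8.36e-05). Asparagine synthetases ran in opposite directions. ASN1, which is induced in darkness, was higher (1.301, adjusted p = 0.00391), and ASN2 was lower (-0.94, adjusted p = 0.00238). Of 20 dark-induced carbon starvation genes 1 was higher and 3 lower (1 to 3 higher and 1 to 3 lower without 1 library). That list's median was -0.11 beside 0.03 for all genes. The nitrate exporter of old leaves NRT1.7 rose (1.21, adjusted p = 0.00307), and the root transporter NRT2:1 fell (-1.76, adjusted p = 0.0308) with a loss of its call without SOB3-D replicate 2 (adjusted p = 0.119). SIP2, a raffinose hydrolase, was the member called among 7 raffinose and galactinol genes (-1.47, adjusted p = 0.00201). NRT2:1 also lost its call without SOB3-D replicate 1 or sob3-6 replicate 2.

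Of 17 cold response genes, 8 were higher and 1 lower, with a median of 1.07 beside 0.03 for all genes, 7 without SOB3-D replicate 1, SOB3-D replicate 2 or sob3-6 replicate 2, and 12 with the replicate block. COR15A (AT2G42540, chr2:17710441-17712330), a chloroplast protein that protects membranes during freezing, had 475, 969 and 618 CPM in the sob3-6 libraries, against 18.2, 49.5 and 59.9 CPM in the SOB3-D libraries. RD29A (AT5G52310, chr5:21240717-21243644), a hydrophilic protein induced by cold, drought and abscisic acid, had 656, 1105 and 832 CPM in the sob3-6 libraries, against 126, 210.0 and 184 CPM in the SOB3-D libraries. The replicates varied widely in both genotypes, yet the lowest sob3-6 library exceeded the highest SOB3-D library in each gene (4.10, adjusted p = 0.000825 for COR15A and 2.31, adjusted p = 0.000717 for RD29A). COR15B (2.88, adjusted p = 0.002) and COR413IM1, an inner envelope protein of the chloroplast (2.02, adjusted p = 0.000766), rose as well, with 25.65% of the stretches of COR15B found in another gene. RAV1, a repressor of growth that falls in brassinosteroid, was lower (-0.83, adjusted p = 0.0226), a call lost without SOB3-D replicate 2 (adjusted p = 0.0902). The promoters of COR15A and RD29A shown above hold copies of the cold core, and they were the only 2 of the 8 cold genes that rose to do so. That motif was added to the search after the values were seen. RAV1 also lost its call without SOB3-D replicate 1 or sob3-6 replicate 2.

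Abscisic acid genes moved in both directions. Of 31 genes 6 were higher and 6 lower (3 to 7 higher and 4 to 6 lower without 1 library, fewest higher without sob3-6 replicate 2). Those lower included the receptors PYL4, PYL5 and PYL6, while those higher included NCED3 and NCED4 of the carotenoid cleavage family, of which NCED3 makes the hormone's precursor. PYL5 (AT5G05440) had 29.2, 27.7 and 33.6 CPM in the sob3-6 libraries, against 106, 71.8 and 78.9 CPM in the SOB3-D libraries. NCED3 (AT3G14440) had 10.6, 14.7 and 14.7 CPM in the sob3-6 libraries, against 4.09, 6.32 and 3.22 CPM in the SOB3-D libraries. The receptor was lower and the cleavage enzyme higher in every sob3-6 library (-1.48, adjusted p = 0.000836 for PYL5 and 1.49, adjusted p = 0.00639 for NCED3). PYL6 (-1.77, adjusted p = 0.00813) and PYL4 (-0.86, adjusted p = 0.00768) fell, NCED4 rose (1.44, adjusted p = 0.00356), and none of these 5 calls was lost without 1 library.

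Of 96 heat shock proteins and factors 12 (12.5%) were higher and 6 (6.25%) lower (3 to 16 higher and 5 to 6 lower without 1 library, fewest higher without sob3-6 replicate 2), beside 6.09% and 4.11% of all genes. The list's median was -0.005, with 47 positive and 49 negative fold changes, so that the list as a whole did not shift. ROF2 (AT5G48570), an immunophilin that binds HSP90, had 73.7, 83.9 and 70.7 CPM in the sob3-6 libraries, against 17.2, 13.3 and 9.79 CPM in the SOB3-D libraries, a difference without overlap (log2 fold change 2.49, SE 0.18, adjusted p = 0.000159). The small heat shock gene AT1G54050 rose (1.99, adjusted p = 0.00119), and AT5G12020, a class II small heat shock gene, rose (1.6, adjusted p = 0.00904) with an adjusted p of 0.0532 without sob3-6 replicate 2. cpHsc70-2 (AT5G49910), a chaperone of the chloroplast stroma, had 199, 216 and 217 CPM in the sob3-6 libraries, against 419, 410.4 and 368 CPM in the SOB3-D libraries, lower in each sob3-6 library (log2 fold change -0.92, SE 0.09, adjusted p = 0.000766). HSFA7A, a heat shock factor (-1.18, adjusted p = 0.00681), and AT4G21870, a small heat shock gene (-1.37, adjusted p = 0.00538), were lower.

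Of 35 glucosinolate genes 6 were lower and 3 higher, beside 4.11% and 6.09% of all genes (0 to 8 higher and 1 to 7 lower without 1 library, fewest higher without SOB3-D replicate 1 or sob3-6 replicate 2 and fewest lower without SOB3-D replicate 1 or 2). Without replicate 3 of both genotypes 10 were higher and 5 lower. CYP83A1, of the aliphatic branch, was lower (-1.65, adjusted p = 0.0221) and CYP83B1, of the indole branch, higher (0.82, adjusted p = 0.0188), and neither call held in each fit without 1 library (adjusted p = 0.0875 without SOB3-D replicate 1 for CYP83A1 and 0.0857 without sob3-6 replicate 2 for CYP83B1). BCAT4 (-1.86, adjusted p = 0.0371) and IPMI2 (-1.82, adjusted p = 0.032), of the chain elongation that precedes the aliphatic branch, were lower but not without SOB3-D replicate 2 (adjusted p = 0.13 and 0.11), and FMO GS-OX2, which modifies side chains, was higher (1.39, adjusted p = 0.0173) but not without SOB3-D replicate 1 (adjusted p = 0.0725). TT4 (AT5G13930), the chalcone synthase that opens the flavonoid pathway, had 89.3, 56.9 and 25.9 CPM in the sob3-6 libraries, against 191, 180.1 and 169 CPM in the SOB3-D libraries. The 3 sob3-6 libraries were all lower but far apart (log2 fold change -1.81, SE 0.35, adjusted p = 0.0144), and without SOB3-D replicate 1 the adjusted p was 0.0633. Of 23 flavonoid genes 1 was lower and 1 higher (0 to 1 higher and 0 to 3 lower without 1 library), but the list's median was -0.48 beside 0.03 for all genes, 18 of the 23 had a negative fold change, and 3 were lower with DESeq2 and 5 with the replicate block. Among jasmonate genes, VSP2, a storage protein and defence marker, rose (1.32, adjusted p = 0.00182), as did AOS, an enzyme of jasmonate synthesis (1.02, adjusted p = 0.0143), whose call was lost without SOB3-D replicate 1 (adjusted p = 0.0646), with 3 of 28 higher and 1 lower (1 to 4 higher and 1 lower without 1 library, fewest higher without SOB3-D replicate 1 or sob3-6 replicate 2). CYP83A1 also lost its call without SOB3-D replicate 2 or sob3-6 replicate 1. CYP83B1 also lost its call without SOB3-D replicate 1, SOB3-D replicate 2 or sob3-6 replicate 1. BCAT4 and IPMI2 also lost their calls without SOB3-D replicate 1, SOB3-D replicate 3 or sob3-6 replicate 1. FMO GS-OX2 also lost its call without SOB3-D replicate 3 or sob3-6 replicate 2. TT4 also lost its call without SOB3-D replicate 2 or sob3-6 replicate 2. AOS also lost its call without sob3-6 replicate 2.

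Among transcription factor families outside the light and clock lists, 4 of 19 TCP genes were higher and none lower (1 to 5 higher without 1 library, fewest higher without SOB3-D replicate 1), and 4 of 25 GATA genes were higher and 1 lower (1 to 3 higher and 0 to 1 lower without 1 library, fewest higher without SOB3-D replicate 1 or 3 or sob3-6 replicate 2), beside 6.09% higher and 4.11% lower of all genes. TCP15 (AT1G69690), a growth regulator, had 33.5, 43 and 34.7 CPM in the sob3-6 libraries, against 17.59, 15 and 15.7 CPM in the SOB3-D libraries, with no overlap (log2 fold change 1.17, SE 0.13, adjusted p = 0.00117). GNC (AT5G56860), a GATA factor that promotes greening, had 39.3, 41 and 37.9 CPM in the sob3-6 libraries, against 15.9, 23.4 and 15.4 CPM in the SOB3-D libraries, also without overlap (log2 fold change 1.11, SE 0.16, adjusted p = 0.00376), and its paralog CGA1 was higher (0.88, adjusted p = 0.0218) but not without SOB3-D replicate 1 (adjusted p = 0.0846). MYB47 (2.27, adjusted p = 0.00237) and MYB31 (1.58, adjusted p = 0.00342) rose among 84 MYB genes, of which 6 were higher and 1 lower (4 to 7 higher and 0 lower without 1 library). ERF72, a hypoxia-responsive factor, rose (1.45, adjusted p = 0.00078) among 54 ERF and DREB genes, of which 6 were higher and none lower (2 to 5 higher and 0 to 1 lower without 1 library, fewest higher without SOB3-D replicate 1 or sob3-6 replicate 2). Of 62 WRKY genes 2 were higher and 1 lower (0 to 7 higher and 1 lower without 1 library, fewest higher without SOB3-D replicate 1 or 2 or sob3-6 replicate 2), and of 79 NAC genes 1 was higher (0 to 4 higher and 0 to 1 lower without 1 library). Of 68 cell cycle genes 2 were higher and 1 lower (0 to 3 higher and 0 lower without 1 library, fewest higher without sob3-6 replicate 2), and of 42 histone genes 1 was higher and 1 lower (0 to 1 higher and 0 to 2 lower without 1 library). Of 30 autophagy genes none was called (0 to 1 lower without 1 library). CGA1 also lost its call without SOB3-D replicate 3 or sob3-6 replicate 2.

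Markers of organs and cell types were set beside these results. Of 22 root markers, 19 were tested, 1 was higher and 2 were lower (0 to 1 higher and 0 to 2 lower without 1 library, fewest lower without SOB3-D replicate 1 or 2 or sob3-6 replicate 2), and their summed level was 2206 to 2733 CPM in sob3-6 libraries and 3416 to 3662 CPM in SOB3-D. Most of that sum was PYK10, a root beta-glucosidase, with 2058, 1988 and 1780 CPM in the sob3-6 libraries, against 2910, 2954 and 2986 CPM in the SOB3-D libraries (-0.61, adjusted p = 0.0172), and without it the sum was 425.9 to 674 CPM in sob3-6 libraries and 430.2 to 708 CPM in SOB3-D. AMT1;5 was at 0 in all 6 libraries. The call of PYK10 was lost without sob3-6 replicate 2 (adjusted p = 0.0804). None of 30 root hair markers (29 tested) was called (0 to 6 lower without 1 library), but 27 of the 29 had a negative fold change, with a median of -0.27 beside 0.03 for all genes. Their sums were 151 to 325 CPM in sob3-6 libraries and 231 to 275 CPM in SOB3-D. Seed storage markers, of which 9 of 20 were tested and SESA4 was at 0, summed to 95.8 to 239 CPM in sob3-6 libraries and 116 to 214 CPM in SOB3-D. Of 19 markers of the shoot meristem and leaf primordia (14 tested) 2 were higher and 1 lower (1 to 2 higher and 0 lower without 1 library). Fold changes of the 14 were 6 positive and 8 negative, with a median of -0.02 beside 0.03 for all genes. Sums were 387 to 466 CPM in sob3-6 libraries and 338 to 361.5 CPM in SOB3-D. Without PDF1, the most abundant of these markers, they were 199.7 to 229 CPM in sob3-6 and 178.6 to 198 CPM in SOB3-D. KNAT1, a homeobox gene of the meristem, was among the markers called higher (1.305, adjusted p = 0.000766). Vascular markers summed to 589.7 to 679 CPM in sob3-6 libraries and 520.6 to 603 CPM in SOB3-D, and trichome markers to 84.7 to 87.2 CPM in sob3-6 libraries and 87.1 to 88.3 CPM in SOB3-D. Of 19 stomatal markers 3 were higher and none lower (0 to 2 higher without 1 library, fewest higher without SOB3-D replicate 1, 2 or 3 or sob3-6 replicate 2), with sums of 246 to 276 CPM in sob3-6 libraries and 221.0 to 238 CPM in SOB3-D. The part of organ makeup in the gene results was not tested. PYK10 also lost its call without SOB3-D replicate 1, SOB3-D replicate 2 or SOB3-D replicate 3.

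The genotype difference at ZT9 was tested against that at ZT4 and ZT24 by an interaction term, with all 18 libraries fitted by limma together, each time having its own libraries of both genotypes. Seedlings were older at ZT24 than at ZT4 and ZT9, so that time of day and age cannot be told apart against ZT24. It differed from that at ZT4 for 307 genes (1.49% of 20567) and from that at ZT24 for 845 (4.11%). Of the 2088 genes called at ZT9, whose choice rests on the same ZT9 values, 177 differed from ZT4, 547 from ZT24 and 641 from either. The counts over all genes rest on the replicates, since without replicate 2 of every group 9 and 15 genes passed, without replicate 1 of every group 41 and 106, and with the replicate block 643 and 1474.

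Light harvesting and carbon fixation had list medians of opposite sign at ZT9 and ZT24. The light-harvesting list had median log2 fold changes of 0.13, 0.60 and -0.14 at ZT4, ZT9 and ZT24, and 13 of its 21 genes differed between ZT9 and ZT24. LHCB2.3 gave 0.46, 2.51 and 0.29 at the 3 times in that order, and the difference between ZT9 and ZT24 was 2.22, adjusted p = 7.3e-07. The Calvin cycle had medians of -0.24, -0.53 and 0.21 at the 3 times, with 14 of 21 genes differing from ZT24 and 0 from ZT4. Photorespiration had medians of -0.38, -0.57 and 0.31, with 13 of 16 differing from ZT24 and 1 from ZT4. FBA1 gave -0.82, -0.99 and 0.49 at the 3 times, opposite in sign at the end of the night, and the difference between ZT9 and ZT24 was -1.48, adjusted p = 0.000114. The cold list had medians of 0.08, 1.07 and 0.64, with 6 of 17 genes differing from ZT4 and 2 from ZT24. RD29A gave 0.08, 2.31 and 0.65 at the 3 times, and the difference between ZT9 and ZT4 was 2.23, adjusted p = 0.00197. The BBX list stood at -0.02, 0.50 and 0.17 and the clock list at -0.13, 0.18 and 0.09 at ZT4, ZT9 and ZT24. The Aux/IAA list, at 0.23, 0.35 and 0.26, held no gene whose difference at ZT9 differed from that at ZT4 or ZT24. GI gave -0.37, 1.12 and 0.11 at the 3 times, and the difference between ZT9 and ZT4 was 1.48, adjusted p = 0.00896.

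**Figure D5:**
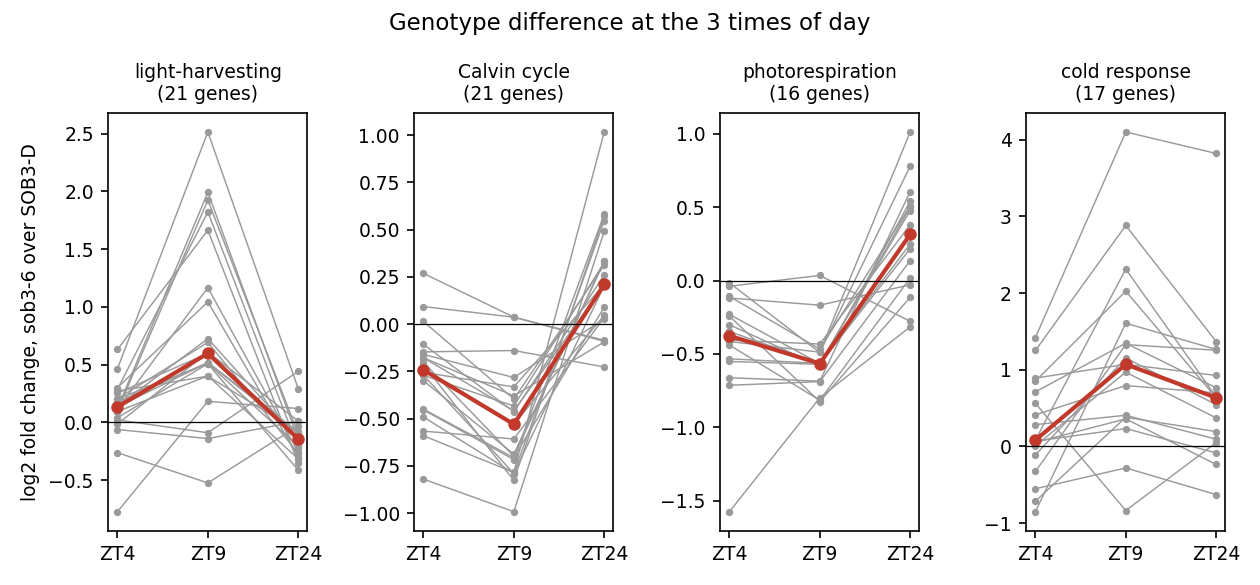
Each grey line is 1 gene of a list and the red line is the list's median, with the time of day (ZT4, ZT9, ZT24) on the x axis and the log2 fold change, sob3-6 over SOB3-D, on the y axis. Seedlings at ZT24 were older than those at ZT4 and ZT9. The medians of the light-harvesting list are 0.13, 0.60 and -0.14, those of the Calvin cycle -0.24, -0.53 and 0.21, those of photorespiration -0.38, -0.57 and 0.31 and those of the cold list 0.08, 1.07 and 0.64.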

How the data were processed

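Poly(A) RNA of whole seedlings was sequenced from stranded libraries. The authors mapped reads to TAIR10 cDNA with Bowtie, keeping all best hits, and deposited CPM per transcript, and since reads with several best hits count on each, the deposited columns sum to 1546180 to 1566570 at ZT9 and were treated as a signal rather than strict CPM. Versions, and the use of strand in counting, are not given in the sources used here. Dividing by the value of 1 read gave whole reads for 100% of values within 0.01 read.

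Transcripts averaging 0.5 CPM or more in the 6 ZT9 libraries were kept, and log2(CPM + 0.5) was fitted with limma 3.58.1 in R 4.3.3, with a trend of variance on level, two-sided, and p-values were adjusted by Benjamini-Hochberg over all transcripts. A gene was called when 1 transcript passed 0.05, and its values are those of its most abundant transcript. edgeR 4.0.16 and DESeq2 1.42.0 on recovered reads, other pseudocounts, filters and scalings, a replicate block and fits without 1 library were alternatives. Genotypes of a replicate number came from shared plates. Deviations from the group means correlated at 0.148, 0.150 and 0.253 for the same number and at -0.212 to 0.109 for different numbers. P-values measure the spread between these pools.

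Genes named are SOB3, growth genes the study names, the 10 largest changes in each direction with a mean of at least 5 CPM and 3 of 3 replicate pairs, and from each list up to 4 called members per direction and up to 3 abundant uncalled ones. The comparison, gene lists and named genes were chosen with earlier results of these data known. Lists came from symbols and products in the annotation. Scripts were tested on simulated data. Promoters and coordinates are from TAIR10.1 of RefSeq.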

Additional observations from a re-analysis of the deposited data

Results flagged for a closer look

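At ZT9 the genotype difference itself differed from that at ZT4 for 307 genes and from that at ZT24 for 845 genes (limma interaction, adjusted p under 0.05). Without replicate 2 of every group these counts were 9 and 15. Each value below is the log2 fold change of sob3-6 over SOB3-D at ZT9 minus that at the other time, given for the genes named above at the time with the larger change. No sample was tested as far from its group, since the groups hold 3 libraries.

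Against ZT24, light-harvesting and photosystem genes were more in favour of sob3-6 at ZT9, with values for LHCB2.3 (2.22), LHCB2.2 (2.14), LHCB2.1 (2.02), LHCB4.2 (2.04), LHCB1.4 (2.02), LHCB3 (1.43), PSAD-2 (1.03) and PSBQ-2 (0.79). The oxidoreductases of chlorophyll synthesis moved the same way, with PORA (3.09) and PORB (1.58). Growth and light genes with such a difference from ZT24 were PIF4 (1.22), PAR1 (1.58), GASA6 (1.11), EXPA8 (1.34), PHYA (1.00), PKS2 (0.94), BBX6 (0.84), LNK2 (1.59) and TCP15 (0.67). AT5G44440 (3.03), COR413IM1 (1.39) and ROF2 (2.23) completed those with a positive value.

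Against ZT24, carbon fixation and photorespiration genes were more in disfavour in sob3-6 at ZT9, with FBA1 (-1.48), RBCS2B (-1.4), RBCS1B (-1.34), RBCS3B (-1.03), GAPB (-0.99), GLYK (-0.71), SHM1 (-0.83) and GLDP2 (-0.82). Other plastid and nitrogen genes with a negative value were PSB28 (-1.23), PDE312 (-1.08), FAD8 (-1.33), PGI1 (-0.49), cpHsc70-2 (-1.20), NIA1 (-1.20) and ASN2 (-0.78). The remaining negative values were those of MIOX2 (-2.85), SIP2 (-1.75), IPMI2 (-3.04) and CYP83A1 (-3.07).

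Against ZT4, positive values were found for the stress and abscisic acid genes COR15A (2.68), RD29A (2.23), NCED3 (1.65), NCED4 (1.4) and AT1G54050 (1.68). Light, clock and greening genes with a positive value were PHOT1 (0.70), BBX28 (1.74), GI (1.48), LNK4 (1.15), LNK1 (1.05), CDF1 (1.03), GNC (1.72), CGA1 (2.19), GUN4 (1.26) and SIGA (0.63). Growth, wall and wax genes were PIF8 (0.95), HFR1 (1.27), AT3G49220 (0.80), MYB96 (1.15) and KCS1 (1.29). AOAT2 (0.78) was positive although the gene was lower at ZT9, its fold change at ZT4 being more negative. Negative values against ZT4 belonged to CRK30 (-2.98), PYL5 (-1.44), HSFA7A (-1.33) and LBD38 (-0.84).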

How the results depend on the processing

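The 1246 genes higher in sob3-6 became 1962 with the replicate block, 1876 in 1 fit of 18 libraries, 412 at an adjusted p under 0.01 and 299 with a log2 fold change of at least 1. Without replicate 3 of both genotypes, an alternative chosen after seeing the data, 1584 were higher and 1113 lower. Without 1 library the higher ones ranged from 436 to 1264. The 842 genes lower in sob3-6 became 1454 with the replicate block, 1638 with edgeR's quasi-likelihood test and the block, 255 at an adjusted p under 0.01 and 120 with a log2 fold change of at least 1, and ranged from 276 to 959 without 1 library. The 307 genes that differed from ZT4 became 643 with the block and ranged from 9 to 261 without 1 replicate number, and the 845 that differed from ZT24 became 1474 with the block, 562 with TMM rescaling and 15 to 646. On the recovered reads edgeR's quasi-likelihood test called 1036 higher and 884 lower, its exact test 1400 and 1200, and DESeq2 949 and 967. The block ended the call of none of the 141 named genes called. Of these 141, 96 kept their call in all 6 fits without 1 library, and 41 lost it without sob3-6 replicate 2, 37 without SOB3-D replicate 1 and 34 without SOB3-D replicate 2. None of the 141 changed direction under the alternatives run, whereas PIF1, BRI1, DWF1, PHYB and TOC1, not called and close to 0, changed sign under some. The cause of these changes was not tested, except that fits without a library hold fewer samples. Depth limits genes near 1 CPM, where 3 reads are 0.335 to 0.421 CPM.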

Other observations

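Some of the largest changes were of neighbouring genes, chosen for mention after their values were seen, and closeness itself was not tested. COR15A and COR15B lie next to each other on chromosome 2 and were both higher. The lectin-like genes AT1G52000, MBP2 and MBP1 lie close together on chromosome 1. MBP2, a myrosinase-binding protein like MBP1, had 5.02, 6.65 and 3.37 CPM in the sob3-6 libraries, against 0.743, 1.12 and 0.386 CPM in the SOB3-D libraries (log2 fold change 2.14, SE 0.31, adjusted p = 0.00425 by limma with Benjamini-Hochberg adjustment), and all 3 genes were higher in sob3-6. HMG1, an enzyme of sterol synthesis whose locus number directly precedes that of SOB3 among the tested genes, had 575, 516 and 658 CPM in the sob3-6 libraries, against 394, 377 and 435 CPM in the SOB3-D libraries (log2 fold change 0.53, SE 0.11, adjusted p = 0.0195 by limma). The next gene after SOB3, AT1G76510, had 23.7 ± 0.651 CPM in sob3-6 libraries and 22.1 ± 1.89 CPM in SOB3-D and was not called (0.10, adjusted p = 0.625).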
